A study of Homo sapiens with 6 samples.

Results

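The Wnt genes described here are 51 protein-coding genes of the 30987 genes in the count table of a PAIP1 knockdown in HepG2, a human liver cancer line. They were taken by name, with earlier results of these data known. They are every WNT and FZD gene, DKK1 to DKK4 and SFRP1 to SFRP5 as far as the table holds them. The other 19 are named genes that carry, bind, destroy or read the signal. Cells of the siPAIP1 group were transfected with siRNA3 against PAIP1 and those of the Ctrl group with non-target control siRNA, each with 3 biological replicates harvested after 48 h. A single siRNA sequence was used, so an effect of losing PAIP1 and any other effect of that siRNA cannot be told apart. All cells were of the same line and received siRNA with the same transfection reagent. The sequenced RNA was poly(A)-selected, with paired-end reads. Levels are given as FPKM (fragments scaled to exon length and to the mapped fragments of the library), which can be compared between genes, and group differences as log2 fold changes of counts, siPAIP1 over Ctrl.

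Wnt proteins are secreted signals that carry a lipid attached by PORCN and are taken to the cell surface by WLS. They bind Frizzled receptors (FZD) together with LRP5 or LRP6. Without the signal, a complex of AXIN, APC and GSK3B marks beta-catenin (CTNNB1) for destruction, and with it beta-catenin enters the nucleus and acts with TCF and LEF proteins on target genes, among them feedback inhibitors of the pathway itself. In the liver the pathway sets the enzymes of hepatocytes around the central vein, and HepG2 carries a heterozygous deletion in CTNNB1 that removes the part of the protein by which it is marked for destruction.

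The libraries held 29313211 to 34157368 counts in siPAIP1 and 31045623 to 34659866 in Ctrl. PAIP1 had 8.29, 6.54 and 5.47 FPKM in siPAIP1 and 26.83, 22.96 and 26.01 FPKM in Ctrl. All 11 hepatocyte markers were tested, and 5 of them fell and none rose, where 6.2% of the 15528 genes tested fell. The summed level of the hepatocyte markers was 4005 to 5370 FPKM in siPAIP1 and 5534 to 6154 FPKM in Ctrl, and the part of this shift in the results below was not tested. Of the markers of other cell types, 8 of 9 for fibroblasts and stellate cells, 8 of 8 for endothelial cells and 8 of 11 for white blood cells stayed under 1 FPKM in every library, with COL1A2, COL3A1, KDR, PTPRC, CD3E and MS4A1 at 0. The fibroblast and stellate markers summed to 57.7 to 79.3 FPKM in siPAIP1 and 42.6 to 44.5 FPKM in Ctrl, nearly all of it ACTA2. Of the 2 of them that were tested, 1 was called higher, as were 5.68% of all genes, and none lower. The white blood cell markers summed to 184 to 271 FPKM in siPAIP1 and 262 to 289.7 FPKM in Ctrl, nearly all of it LYZ, and the part of either list in the results was not tested. As in any bulk sample, fewer cells with a transcript and less of it per cell cannot be told apart. The library siPAIP1 replicate 3 stood apart. In it, 357 of 9247 genes with a mean of at least 10 CPM (counts scaled to library size) exceeded the mean of replicates 1 and 2 more than 2-fold, against at most 7 for any other library and its own group. For the Wnt genes, calls that change without it are given with and without it.

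Of the 51 Wnt genes, 11 averaged at least 10 FPKM, 21 averaged at least 1 FPKM and 29 stayed under 1 FPKM, and WNT5A had no FPKM row. After the filter on low counts 34 were tested. The 17 that were not tested had at most 48 counts in all 6 libraries together, and 13 of them at most 10. By edgeR's quasi-likelihood test at an adjusted p under 0.05, 5 of the 34 were higher in siPAIP1 (14.7%, against 5.68% of the 15528 genes tested) and 5 were lower (14.7%, against 6.2% of all). WNT9A, WNT10B, WNT7B, FZD8 and TCF7L1 rose, and DKK1, NOTUM, FZD4, FZD5 and WNT6 fell. Where the fold change also had to reach 2, or 0.5 downwards, 3 were higher (1.11% of all genes) and 2 were lower (1.1% of all genes). In CPM, 7 had all siPAIP1 libraries above all Ctrl libraries (20.6%, against 19% of all) and 9 had them all below (26.5%, against 17.6% of all). The first of these shares lay near that of all genes. The median log2 fold change was -0.04 over the 34 and 0.03 over all genes tested. These counts describe the genes that passed the filter. WNT10B, which is among the 5 higher and the 3 that also reached a fold change of 2, passed it through its siPAIP1 libraries alone.

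**Figure D1:**
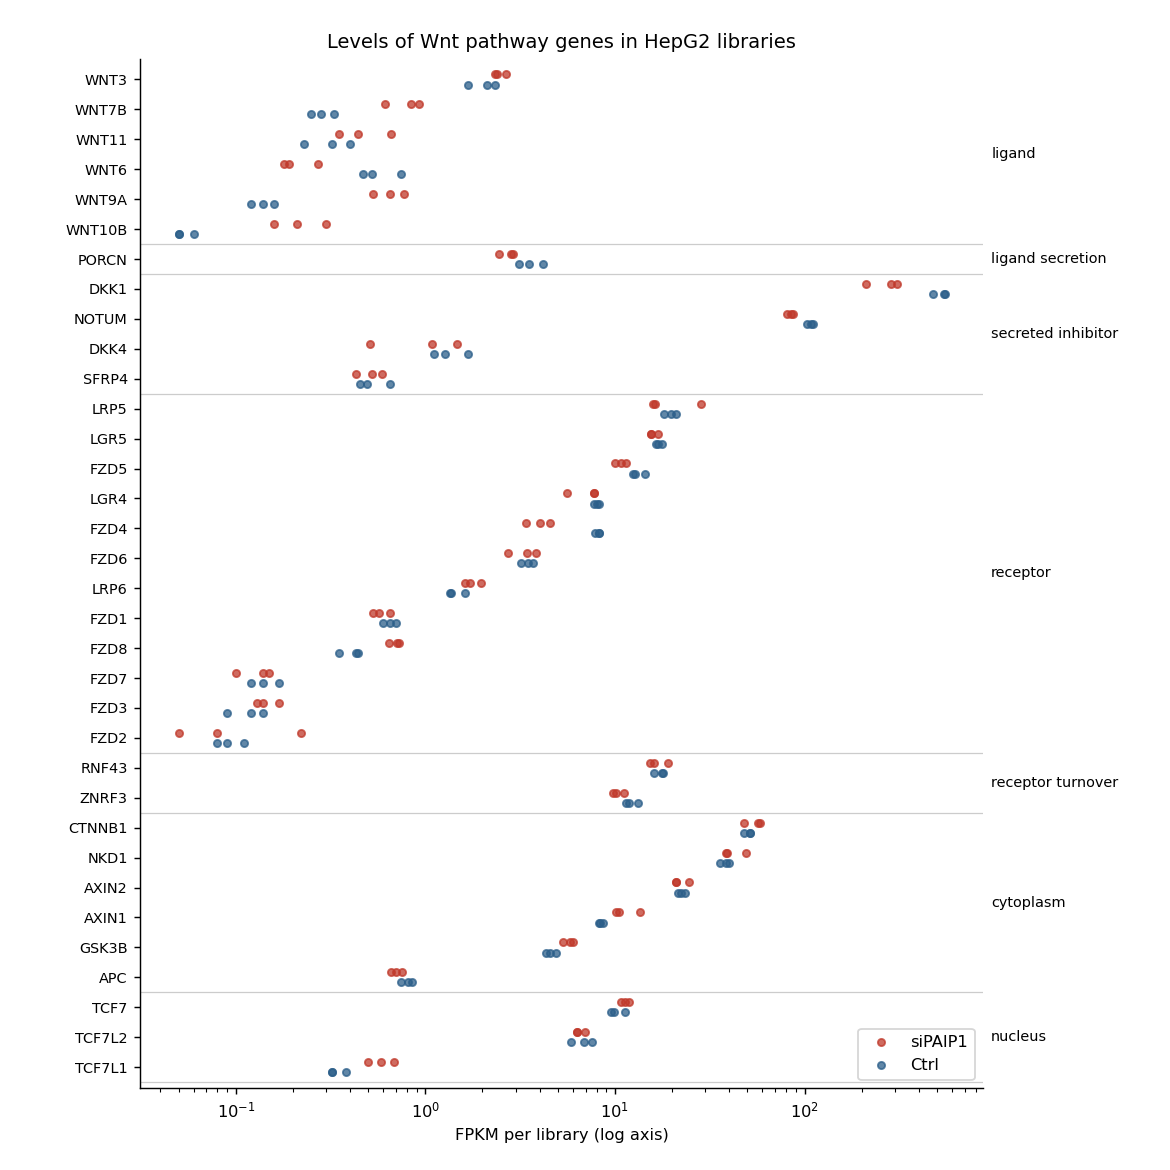
FPKM of each library (log axis) for the Wnt pathway genes with a mean of at least 0.1 FPKM, grouped by role, with siPAIP1 drawn above Ctrl in each row. DKK1 lay at 210.02 to 307.02 FPKM in siPAIP1 and 473.94 to 547.30 FPKM in Ctrl, while no WNT gene exceeded 2.67 FPKM in any library.

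The promoters of the 3 genes whose call held under every alternative tried, WNT9A, DKK1 and FZD4, are shown from 250 bases before to 50 bases after the start of the RefSeq transcript (GRCh38.p14), read on the strand of the gene. They lie at chr1:227947883-227948182 on the minus strand, chr10:52314031-52314330 on the plus strand and chr11:86955346-86955645 on the minus strand. Capitals mark a match to CTTTGAA or CTTTGAT, forms of the core letters bound by TCF and LEF proteins, searched on both strands. Other forms of that core were not searched and are not marked.
WNT9A: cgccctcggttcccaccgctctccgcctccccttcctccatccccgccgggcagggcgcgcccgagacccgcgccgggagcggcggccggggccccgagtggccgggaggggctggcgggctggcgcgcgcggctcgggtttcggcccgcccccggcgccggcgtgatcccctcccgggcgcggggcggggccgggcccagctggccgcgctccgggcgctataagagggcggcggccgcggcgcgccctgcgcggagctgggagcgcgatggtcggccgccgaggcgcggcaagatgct
DKK1: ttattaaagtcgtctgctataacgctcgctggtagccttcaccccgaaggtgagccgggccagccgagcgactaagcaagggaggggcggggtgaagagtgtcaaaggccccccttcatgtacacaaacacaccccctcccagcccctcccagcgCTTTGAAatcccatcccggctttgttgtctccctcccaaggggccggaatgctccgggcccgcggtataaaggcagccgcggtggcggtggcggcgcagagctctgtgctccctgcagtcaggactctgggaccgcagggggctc
FZD4: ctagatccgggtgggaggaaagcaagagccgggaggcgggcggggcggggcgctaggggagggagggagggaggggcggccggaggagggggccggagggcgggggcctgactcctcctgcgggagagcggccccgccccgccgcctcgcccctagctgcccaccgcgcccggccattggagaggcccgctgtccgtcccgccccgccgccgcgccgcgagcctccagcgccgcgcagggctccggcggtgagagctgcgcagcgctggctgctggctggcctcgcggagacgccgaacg
Of these 3 only DKK1 held a match, CTTTGAA, whose first base was at -95 from the start. Among the 34 of the 51 Wnt genes with a promoter in the RefSeq table, DKK1 was also the only match (2.94%, against 6.98% of 27305 promoters of the same length). Of the beta-catenin target genes described below, 6 of 27 promoters held one (22.2%). The Wnt promoters had a median GC content of 71.2%, against 58.3% for all promoters, and a median of 30.5 CpG dinucleotides, against 14. WNT9A stood higher still, with 83.0% GC and 53 CpG, than DKK1 with 63.7% GC and 20 CpG. The other 17 Wnt genes had no entry and were not searched, among them WNT7B, WNT10B, NOTUM, AXIN2, NKD1, LGR5 and ZNRF3. The share of 2.94% therefore leaves them out.

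The ligands were few and low, and their make-up differed between the groups. The data held 16 WNT genes, of which 7 were tested. WNT9A (chr1:227918656-227947932) had 0.53, 0.65 and 0.77 FPKM in siPAIP1 and 0.16, 0.12 and 0.14 FPKM in Ctrl, from 77, 95 and 108 counts in siPAIP1 and 24, 18 and 18 in Ctrl. Every siPAIP1 library lay above every Ctrl library by a wide margin, and the rise was 4.58-fold (log2 fold change 2.20, SE 0.24, adjusted p = 0.00317). WNT7B (chr22:45920366-45977162) had 0.61, 0.93 and 0.84 FPKM in siPAIP1 and 0.33, 0.25 and 0.28 FPKM in Ctrl, a 2.68-fold rise with no overlap (1.42, SE 0.21, adjusted p = 0.00766). Its call was lost only without Ctrl replicate 3 (adjusted p = 0.0536). WNT10B (chr12:48965340-48971735) had 13, 25 and 17 counts in siPAIP1 and 5, 4 and 4 in Ctrl. That was a 4.04-fold difference from few fragments (2.01, SE 0.38, adjusted p = 0.0168). WNT10B was tested only because its siPAIP1 libraries passed the count filter, so its call is not independent support for a rise. The call was lost in 5 alternatives, among them leaving out siPAIP1 replicate 2 or any Ctrl library (adjusted p = 0.0548 to 0.0865). All 3 encode secreted ligands, and WNT7B and WNT10B are among the ligands known to act through beta-catenin.

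WNT6 (chr2:218859805-218874233), another ligand, went the other way. It had 0.27, 0.19 and 0.18 FPKM in siPAIP1 and 0.47, 0.52 and 0.74 FPKM in Ctrl, from 17, 12 and 11 counts in siPAIP1 and 30, 33 and 42 in Ctrl. The groups did not overlap, and the fall was 2.69-fold (-1.43, SE 0.28, adjusted p = 0.0202), but it too was lost in 5 alternatives (adjusted p = 0.0611 to 0.0943). WNT3, a beta-catenin ligand and the highest of the family, had 2.34, 2.67 and 2.40 FPKM in siPAIP1 and 1.68, 2.32 and 2.12 FPKM in Ctrl. Its change did not pass the test (0.25, 95% interval -0.08 to 0.57, adjusted p = 0.276). WNT11, known for signaling apart from beta-catenin, had 0.35 to 0.66 FPKM in siPAIP1 and 0.23 to 0.40 FPKM in Ctrl, and its groups overlapped (0.56, 95% interval -0.16 to 1.29). WNT2B had at most 0.05 FPKM and overlapped too (0.07, 95% interval -0.72 to 0.87). Of its exon bases 21.5% are shared with ST7L on the opposite strand. ST7L had 1.19 to 1.37 FPKM in siPAIP1 and 1.08 to 1.10 FPKM in Ctrl, and its part in the WNT2B counts was not tested.

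Summed over the 15 WNT genes with an FPKM row, the level was 4.45, 5.59 and 4.90 FPKM in siPAIP1 and 3.14, 3.79 and 3.64 FPKM in Ctrl. WNT3 made up 49.8% ± 2.51 of that sum in siPAIP1 and 57.7% ± 3.89 in Ctrl (SD, n = 3 each). The share of WNT9A was 13.1% ± 2.28 in siPAIP1 and 4.04% ± 0.979 in Ctrl, and that of WNT7B 15.8% ± 1.85 in siPAIP1 and 8.27% ± 2.02 in Ctrl. WNT6 held 4.38% ± 1.47 in siPAIP1 and 16.3% ± 3.51 in Ctrl. The second most abundant ligand was therefore WNT7B in every siPAIP1 library and WNT6 in every Ctrl library.

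The 9 remaining WNT genes were not tested, and 8 of them had at most 10 counts in all 6 libraries together. A count of 0 allows up to 0.0866 to 0.102 CPM in these libraries, by counting error alone. WNT8B had 3, 2 and 3 counts in siPAIP1 and 0 in each Ctrl library. With Ctrl set to a floor of 3 counts over the group the ratio was 2.72. That ratio leaves out the counting error in siPAIP1, so it is not a lower limit. The gene was picked out after its counts were seen. In 4 pairs of WNT genes that lie close together, the member with more counts is named first here. These first members had 340 (WNT9A), 68 (WNT10B), 1638 (WNT3) and 145 (WNT6) counts in all. WNT9A lies 59065 bases from WNT3A (1 count in all), WNT10B lies 6586 bases from WNT1 (3 counts), WNT3 lies 46 bases from WNT9B (9 counts), and WNT6 lies 6618 bases from WNT10A (23 counts) in GENCODE 44.

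Of the pair that makes Wnt proteins ready for release, 1 was nearly absent. WLS had 1 count in Ctrl replicate 1 and 0 in the other 5 libraries, of 196652021 counts in all. PORCN, the enzyme that attaches the lipid, had 2.84, 2.91 and 2.46 FPKM in siPAIP1 and 3.11, 3.50 and 4.15 FPKM in Ctrl. All siPAIP1 libraries lay below all Ctrl libraries, but the change did not pass the test with all libraries (-0.42, SE 0.13, adjusted p = 0.0729). Without siPAIP1 replicate 3 it did (-0.39, adjusted p = 0.0357).

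**Figure D2:**
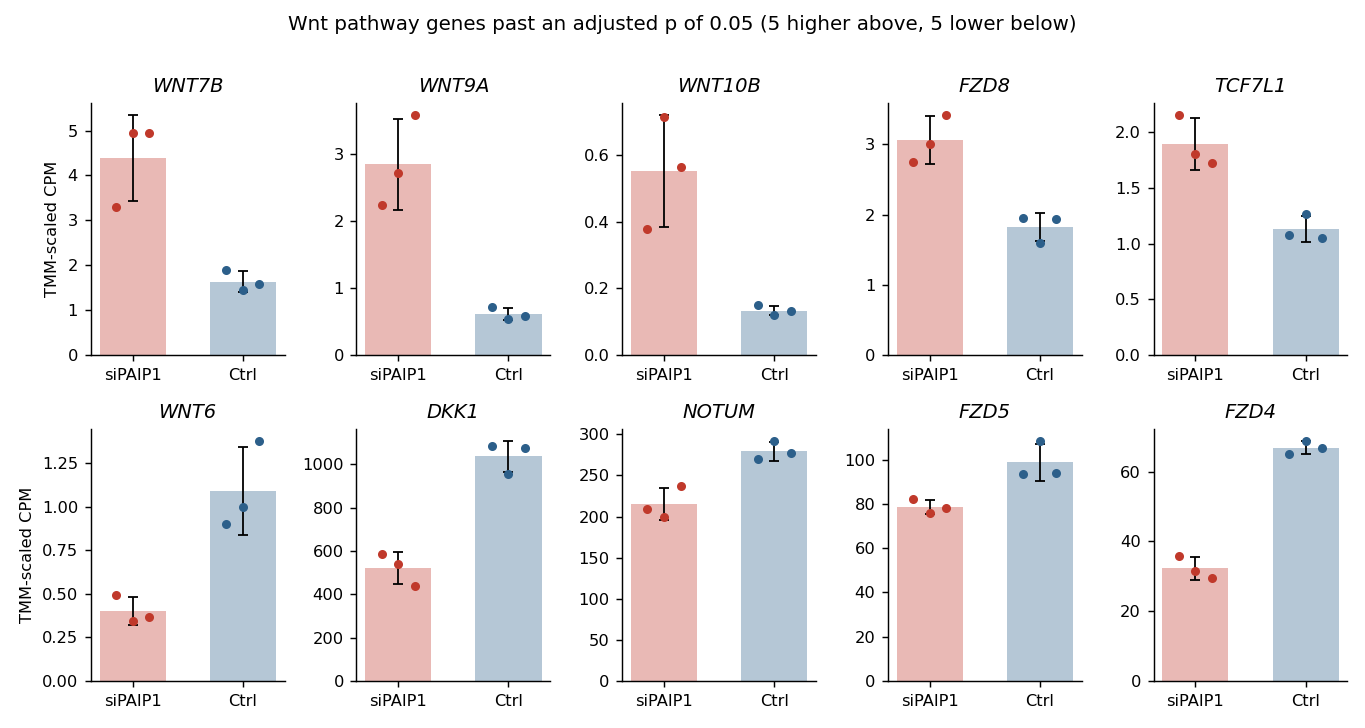
TMM-scaled CPM of the 10 Wnt pathway genes past an adjusted p of 0.05, with siPAIP1 left of Ctrl (points, libraries; bars, means; error bars, SD of 3 libraries). In none of the 10 did the libraries of the groups overlap, but they were picked by p from these same libraries. Of all genes tested, 19% had siPAIP1 wholly above Ctrl and 17.6% wholly below. The axes span from under 1 CPM for WNT10B to a Ctrl mean of 1038 CPM for DKK1.

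The secreted inhibitors were the most abundant class, and both of its abundant members fell. DKK1, which blocks LRP5 and LRP6, ranked 135 of 30706 genes by mean FPKM. It had 307.02, 286.78 and 210.02 FPKM in siPAIP1 and 540.86, 473.94 and 547.30 FPKM in Ctrl. The highest siPAIP1 library was far below the lowest Ctrl library, and the fall of 1.99-fold (-0.99, SE 0.12, adjusted p = 0.00433) was just short of the 2-fold threshold. DKK1 lies at chr10:52314281-52318042, and 10.2% of its exon bases are shared with PRKG1-AS1 on the opposite strand, which had 0.50 to 0.63 FPKM in siPAIP1 and 0.89 to 0.98 FPKM in Ctrl and was lower in siPAIP1 as well (-0.71, adjusted p = 0.0232). NOTUM (chr17:81952507-81961840), which removes the lipid from Wnt proteins, had 84.45, 81.02 and 87.29 FPKM in siPAIP1 and 103.50, 111.41 and 108.43 FPKM in Ctrl. These levels did not overlap either, at a smaller 1.30-fold difference (-0.38, SE 0.087, adjusted p = 0.0327), which was not called in 6 alternatives (adjusted p = 0.0861 to 0.12), 5 of them leaving out a library other than siPAIP1 replicate 3. Summed over the 7 secreted inhibitors, the level was 354 ± 49.5 FPKM in siPAIP1 and 630.4 ± 37.9 FPKM in Ctrl (SD, n = 3 each).

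DKK4, a relative of DKK1, had 1.47, 1.09 and 0.51 FPKM in siPAIP1 and 1.68, 1.11 and 1.27 FPKM in Ctrl, with overlap (-0.44, 95% interval -1.26 to 0.38). SFRP4, which binds Wnt proteins, also overlapped (-0.08, 95% interval -0.56 to 0.40). DKK2, DKK3 and SFRP5 had 8 counts or fewer each in all libraries.

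Among the 14 receptors and coreceptors 2 fell, 1 rose and 8 others were tested without a call. FZD4 (chr11:86945679-86955395), the Frizzled that also answers the ligand Norrin, had 4.57, 4.03 and 3.41 FPKM in siPAIP1 and 7.89, 8.28 and 8.23 FPKM in Ctrl. The groups lay clearly apart, with a 2.08-fold fall (-1.05, SE 0.090) and the lowest adjusted p of the 34 tested genes, 0.00169 by edgeR's quasi-likelihood test. Of its exon bases 18.9% are shared with PRSS23 on the opposite strand, which had 0.24 to 0.30 FPKM in siPAIP1 and 0.25 to 0.30 FPKM in Ctrl. FZD5 (chr2:207762598-207769906) had 11.50, 10.73 and 9.98 FPKM in siPAIP1 and 12.48, 14.38 and 12.80 FPKM in Ctrl, a small fall of 1.26-fold (-0.33, SE 0.083, adjusted p = 0.0449) that was lost in 9 alternatives (adjusted p = 0.057 to 0.142). FZD8 (chr10:35638247-35642296) had 0.64, 0.71 and 0.73 FPKM in siPAIP1 and 0.43, 0.35 and 0.44 FPKM in Ctrl, a 1.67-fold rise (0.74, SE 0.17, adjusted p = 0.0314) lost in 6 alternatives (adjusted p = 0.0517 to 0.103). FZD5 was the most abundant Frizzled in every library. FZD4 was above FZD6 in every library, and in siPAIP1 replicate 2 they had 4.03 and 3.83 FPKM.

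LRP5, the most abundant receptor gene, was split within siPAIP1. It had 16.31, 15.94 and 28.32 FPKM in siPAIP1 and 18.21, 21.07 and 19.74 FPKM in Ctrl, so that replicates 1 and 2 lay below every Ctrl library and replicate 3 above. With all libraries the log2 fold change was 0.03 (95% interval -0.55 to 0.61, adjusted p = 0.95), and without replicate 3 LRP5 was lower in siPAIP1 (-0.36, SE 0.073, adjusted p = 0.00185). LRP6, its partner gene, had 1.62 to 1.97 FPKM in siPAIP1 and 1.35 to 1.61 FPKM in Ctrl (0.28, 95% interval -0.04 to 0.59, adjusted p = 0.222). LGR5 and LGR4 encode the receptors of R-spondins, which strengthen the Wnt signal. LGR5 had 15.42 to 16.97 FPKM in siPAIP1 and 16.41 to 17.65 FPKM in Ctrl, and any change lay between -0.28 and 0.06 on the log2 scale at 95%. LGR4 was at 7.80, 7.79 and 5.58 FPKM in siPAIP1 and 7.76 to 8.22 FPKM in Ctrl (-0.21, adjusted p = 0.229). Though these FPKM ranges overlap, in CPM all siPAIP1 libraries of LGR5 and of LGR4 lay below all Ctrl libraries, by small margins. FZD6 had 2.72 to 3.83 FPKM in siPAIP1 and 3.19 to 3.69 FPKM in Ctrl and overlapped (-0.08, 95% interval -0.34 to 0.17). FZD1, FZD3 and FZD7 stayed under 1 FPKM in every library and were not called (-0.18, 0.32 and -0.17), and FZD2, FZD9 and FZD10 had too few counts to be tested.

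RNF43 and ZNRF3 encode the ligases that clear Frizzled from the surface and are themselves induced by beta-catenin. RNF43 had 15.35, 16.15 and 19.11 FPKM in siPAIP1 and 16.14, 17.69 and 17.84 FPKM in Ctrl (-0.05, 95% interval -0.34 to 0.24). Its exon bases are shared to 69.0% with other annotated genes, so its value is less certain. ZNRF3 had 10.10, 9.73 and 11.13 FPKM in siPAIP1 and 11.45, 13.16 and 11.90 FPKM in Ctrl (-0.26, 95% interval -0.51 to -0.01, adjusted p = 0.167). Neither passed the test with all libraries, and ZNRF3 alone had an unadjusted p under 0.05. Without siPAIP1 replicate 3 both were lower, RNF43 by a log2 fold change of -0.21 (adjusted p = 0.0379) and ZNRF3 by -0.37 (adjusted p = 0.0018).

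**Figure D3:**
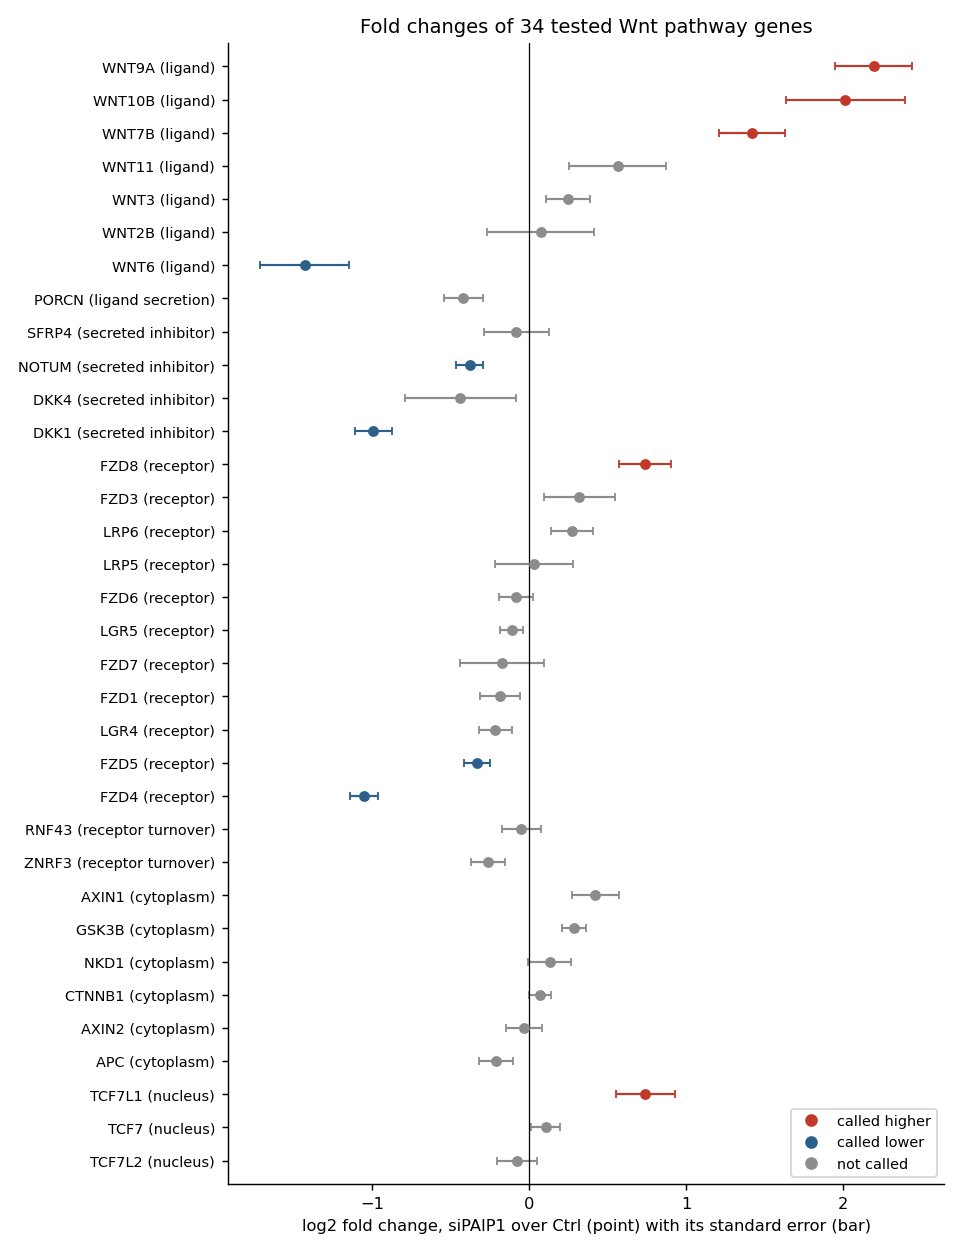
Log2 fold changes of counts (siPAIP1 over Ctrl, point) with their standard errors (bar) for the 34 tested Wnt pathway genes, grouped by role. The range runs from 2.20 for WNT9A to -1.43 for WNT6, with CTNNB1 at 0.07 and AXIN2 at -0.03.

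Of the 6 cytoplasmic genes 0 were called by edgeR's quasi-likelihood test after the main filter on low counts, and 0 by DESeq2 and limma, while 2, AXIN1 and GSK3B, had an unadjusted p under 0.05 in edgeR and were called under another filter. CTNNB1 itself had 56.77, 57.87 and 48.00 FPKM in siPAIP1 and 51.80, 48.18 and 51.69 FPKM in Ctrl, and the 95% interval of its log2 fold change was -0.09 to 0.24. NKD1, an inducible inhibitor that binds Dishevelled, had 39.11, 38.48 and 49.05 FPKM in siPAIP1 and 35.71, 39.72 and 38.74 FPKM in Ctrl, with replicate 3 again the highest (0.13, 95% interval -0.19 to 0.45). Without siPAIP1 replicate 3 the log2 fold change of NKD1 was -0.05 (adjusted p = 0.683). AXIN2, the feedback scaffold most often used as a readout of beta-catenin activity, had 20.94, 20.99 and 24.57 FPKM in siPAIP1 and 21.41, 23.36 and 22.31 FPKM in Ctrl. Its log2 fold change was -0.03 (95% interval -0.30 to 0.23) with all libraries and -0.17 (adjusted p = 0.0787) without siPAIP1 replicate 3. Of its exon bases 25.3% are shared with another annotated gene on the same strand.

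The core of the destruction complex had small differences. AXIN1 had 10.45, 10.10 and 13.57 FPKM in siPAIP1 and 8.2, 8.62 and 8.34 FPKM in Ctrl, without overlap (0.42, SE 0.15, adjusted p = 0.117). It was called higher in siPAIP1 with all libraries and no filter on low counts (0.40, adjusted p = 0.0393) and without siPAIP1 replicate 3 (0.22, adjusted p = 0.032), and in no other alternative (adjusted p = 0.0704 to 0.304). GSK3B, the kinase, had 6.01, 5.78 and 5.31 FPKM in siPAIP1 and 4.52, 4.86 and 4.34 FPKM in Ctrl and narrowly missed the threshold (0.29, SE 0.077, adjusted p = 0.0532). It passed with all libraries under the stricter filter (0.29, adjusted p = 0.0427) and without siPAIP1 replicate 3 (0.29, adjusted p = 0.00915), and in no other alternative (adjusted p = 0.0665 to 0.2). APC, which holds the complex together, had 0.66 to 0.75 FPKM in siPAIP1 and 0.74 to 0.85 FPKM in Ctrl (-0.21, adjusted p = 0.237). In CPM its siPAIP1 libraries lay narrowly below all Ctrl libraries.

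In the nucleus TCF7 and TCF7L2 were the main TCF genes. TCF7 had 10.75 to 11.82 FPKM in siPAIP1 and 9.58 to 11.34 FPKM in Ctrl (0.11, 95% interval -0.10 to 0.32), and TCF7L2 had 6.29 to 6.94 FPKM in siPAIP1 and 5.86 to 7.60 FPKM in Ctrl (-0.08, 95% interval -0.38 to 0.22). Both overlapped between the groups. TCF7L1 (chr2:85133392-85310387), known mainly as a repressor, had 0.68, 0.58 and 0.50 FPKM in siPAIP1 and 0.32, 0.38 and 0.32 FPKM in Ctrl. It rose 1.67-fold (0.74, SE 0.19, adjusted p = 0.0455), and this call was lost in 9 alternatives (adjusted p = 0.0553 to 0.168). LEF1 had 35 counts in all 6 libraries and was not tested.

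Across the 34 tested genes siPAIP1 replicate 3 was over 1.2 times the mean of replicates 1 and 2 in 11 and under 1/1.2 of it in 6. The genes called with all libraries kept their direction in it. Replicate 3 was part of the fit that called them, so this is not independent support. Without replicate 3 the calls came to 7 higher and 9 lower, with AXIN1 and GSK3B added to those that rose and LRP5, PORCN, RNF43 and ZNRF3 to those that fell.

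**Figure D4:**
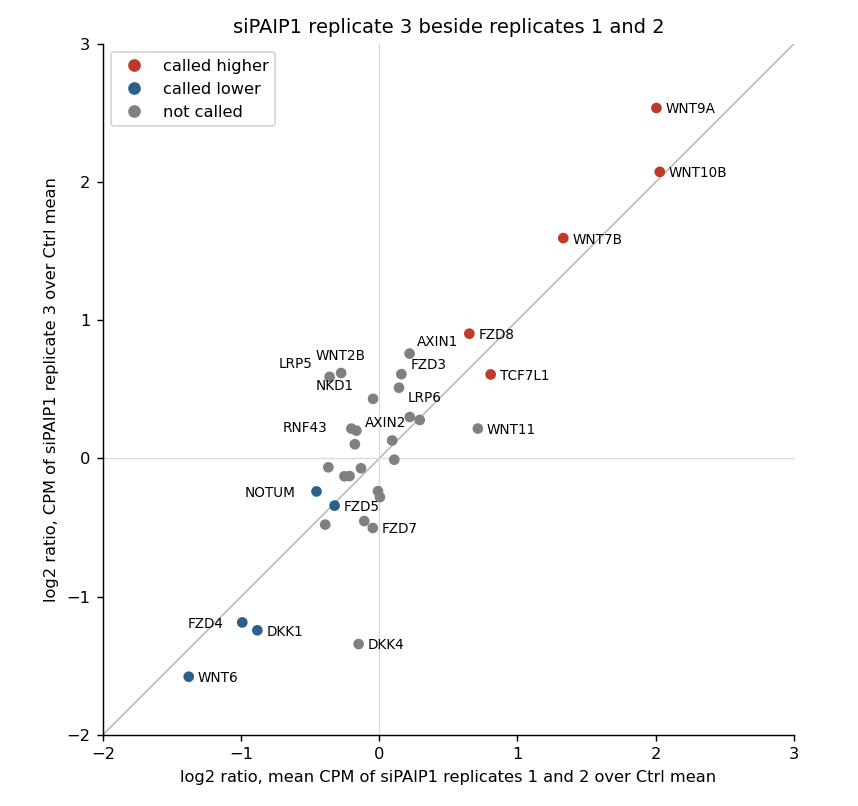
For the 34 tested genes, the log2 ratio of CPM to the Ctrl mean in siPAIP1 replicate 3 (vertical) against that of siPAIP1 replicates 1 and 2 (horizontal), with a line where both are equal. The 10 called genes keep their direction on both axes, but they were called from these same libraries, which favours it. LRP5 lies at -0.36 in replicates 1 and 2 and 0.59 in replicate 3, and DKK4 at -0.15 and -1.34.

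Of 76 other genes of the pathway, 69 were in the table and 54 were tested. Of these 7 rose and 3 fell (12.96% and 5.56% of 54, beside 5.68% and 6.2% of all genes), and the median log2 fold change was 0.16. The 7 that rose include 3 casein kinase genes, CSNK1E, CSNK1G1 and CSNK1G3, whose products phosphorylate pathway proteins, and CTNNBIP1 and CBY1, whose products bind beta-catenin and hold it back. PYGO2, a nuclear partner of beta-catenin, and DAAM2, which acts with Dishevelled, were the others. The log2 fold changes were 0.30 for PYGO2 to 0.49 for CSNK1G1, and 1.56 for DAAM2 (adjusted p = 0.0424), which rested on 11, 14 and 12 counts in siPAIP1 and 6, 3 and 3 in Ctrl. Those that fell were the corepressor gene TLE1 (-0.56), TMED5 (-0.49), whose product carries Wnt proteins through the secretory path, and the glypican gene GPC3 (-0.47). DAAM2 was the only gene of this list called with a change of at least 1.5-fold. Like WNT10B, it passed the filter through its siPAIP1 libraries alone, which favours a higher value in siPAIP1. Its call is therefore not independent support for a rise, though it is counted among the 7. The most abundant were RHOA, RAC1 and TMED2, at 163 to 218 FPKM, 83.8 to 102 FPKM and 35.1 to 45.4 FPKM in siPAIP1, and 190.05 to 216 FPKM, 79.8 to 86.6 FPKM and 47.1 to 50.8 FPKM in Ctrl, and they were not called (adjusted p = 0.635, 0.175 and 0.0801). RSPO1, RSPO2 and RSPO4, R-spondin genes, had no row.

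Of 43 known beta-catenin target genes other than the 51, 40 were in the table and 28 were tested, of which 2 rose and 8 fell (7.14% and 28.6% of 28, beside 5.68% and 6.2% of all genes). The median log2 fold change was -0.16, and in CPM 3 lay wholly above Ctrl and 13 wholly below (10.7% and 46.4% of 28, beside 19% and 17.6% of all genes). The list was drawn up with CCND1 and other results of these libraries known, so its direction is not independent evidence. CCND1, the cyclin of the G1 phase, had 38.27, 38.31 and 48.57 FPKM in siPAIP1 and 106.02, 108.19 and 118.52 FPKM in Ctrl, a 2.69-fold fall with a wide gap (-1.43, SE 0.14, adjusted p = 0.00221). ID2, an inhibitor of DNA-binding factors, had 58.19, 55.17 and 42.80 FPKM in siPAIP1 and 104.95, 92.21 and 112.44 FPKM in Ctrl (-1.02, SE 0.11, adjusted p = 0.00283). MYC, with 26.05 to 30.36 FPKM in siPAIP1 and 27.14 to 27.87 FPKM in Ctrl, was not called (0.04, 95% interval -0.11 to 0.19).

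CYP2E1, a cytochrome P450 of the same list, had 0.69, 0.67 and 0.79 FPKM in siPAIP1 and 1.23, 1.67 and 1.77 FPKM in Ctrl, a 2.21-fold fall (-1.14, SE 0.20, adjusted p = 0.0136). SLC1A2, a glutamate carrier, had 0.48, 0.36 and 0.32 FPKM in siPAIP1 and 0.69, 0.78 and 0.74 FPKM in Ctrl (-0.96, SE 0.14, adjusted p = 0.00766). GLUL, glutamine synthetase, and RHBG, an ammonia carrier, fell by less (-0.44 and -0.43, adjusted p = 0.0237 and 0.0431). All siPAIP1 libraries lay below all Ctrl libraries for these 4 genes. SP5, a transcription factor, and TNFRSF19, a receptor of the TNF family, were the other genes that fell (-0.33 and -0.38). VCAN, a matrix proteoglycan, had 17.89, 18.87 and 21.37 FPKM in siPAIP1 and 10.81, 11.48 and 10.64 FPKM in Ctrl and rose 1.74-fold (0.80, SE 0.11, adjusted p = 0.00676), as did ZIC2, a transcription factor, by 1.49-fold (0.57, adjusted p = 0.0157). BMP4, the most abundant of the list with 78.3 to 92.6 FPKM in siPAIP1 and 88.1 to 93.7 FPKM in Ctrl, was not called (-0.09, adjusted p = 0.401).

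**Figure D5:**
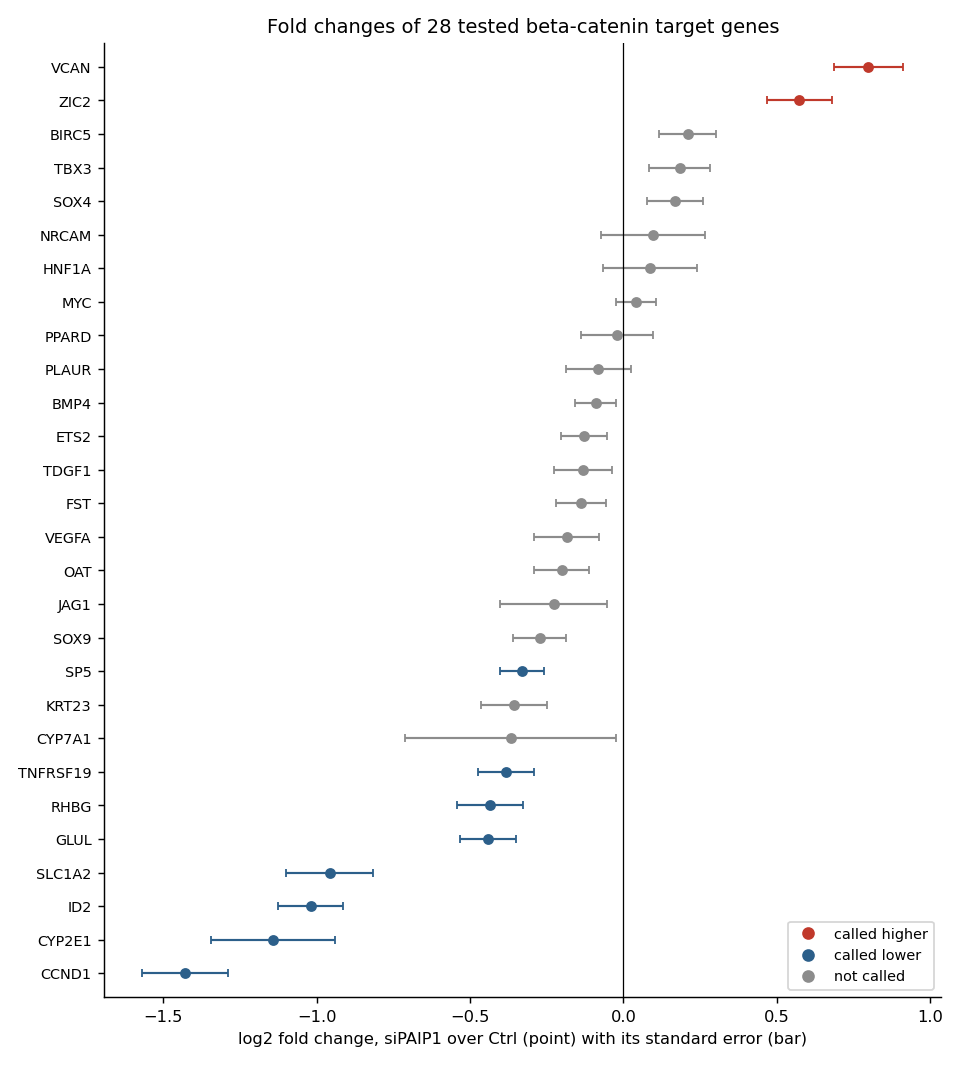
Log2 fold changes of counts (siPAIP1 over Ctrl, point) with their standard errors (bar) for the 28 tested beta-catenin target genes outside the 51 Wnt genes, in order of size. The 8 genes that fell reach -1.43 for CCND1 and the 2 that rose are VCAN (0.80) and ZIC2 (0.57).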

How the data were processed

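Gene counts of 3 siPAIP1 and 3 Ctrl HepG2 libraries were analysed. The authors trimmed the reads, aligned them to GRCh38 with TopHat2 and deposited raw counts of uniquely mapped fragments per gene, and FPKM values that they computed from those alignments and gave to 2 decimals. The library kit was directional. Whether counting used strand, by which tool and with which annotation, is not given in the sources used here.

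The table of 30987 genes was scaled by TMM and reduced by filterByExpr to 15528 genes. The groups were compared by the quasi-likelihood test of edgeR 4.0.16 (R 4.3.3) with group as the only term and Benjamini-Hochberg adjustment over all 15528 genes. Calls have an adjusted p under 0.05, and the fold limits of 2 and 0.5 are those of the paper. SE is the change divided by the root of F, and 95% intervals from that SE. Replicates of each group differed by more than sampling noise. Alternatives were RLE and upper-quartile factors, no filter and a stricter one, DESeq2 1.42.0, limma 3.58.1 on log2(FPKM + 0.1) and log2(FPKM + 1), a replicate block and leaving out each library.

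The 51 genes and the gene lists were chosen with earlier results of these data known. Named genes are all called members, the 3 most abundant of each role, members of at least 1 FPKM, and of each list the 3 most abundant and those called with a change of 1.5-fold. Others are named after their values were seen. Positions are from GENCODE 44 (GRCh38) and promoters from RefSeq.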

Additional observations from a re-analysis of the deposited data

How the results depend on the processing

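The calls of WNT9A, FZD4 and DKK1 held under all 14 alternatives, and none of the 10 called genes changed direction. WNT10B and WNT6 were not tested under the stricter filter. DESeq2 called 3 Wnt genes higher. It did not call TCF7L1 (adjusted p = 0.127 by DESeq2) and gave no adjusted p for WNT10B. With limma-trend, 5 other Wnt pathway genes were called on log2(FPKM + 0.1) and 5 on log2(FPKM + 1), against 10 by edgeR. Leaving out each library in turn gave 1 to 7 Wnt genes higher and 2 to 9 lower, 463 to 3809 genes called of all tested, 0 to 20 other Wnt pathway genes and 3 to 15 beta-catenin target genes. The highest of each came without siPAIP1 replicate 3, and the lowest counts of genes higher, of all genes and of both lists without Ctrl replicate 3. Fits without a library rest on fewer samples.

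Replicate numbers showed no sign of pairing the libraries, with correlations of same-numbered deviations of 0.26, -0.28 and -0.15. Deviations from the means of so few libraries cannot exclude pairing. With the replicate block 2 Wnt genes were higher (WNT7B and WNT9A) and 2 lower (DKK1 and FZD4), with 825 genes called in all (1845 without it), 2 other Wnt pathway genes and 5 beta-catenin target genes.

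Depth limits some ligands. WNT10B rested on 68 counts in all libraries and WNT6 on 145, and counting intervals cover counting error only. Whether siPAIP1 replicate 3 stands apart for a technical reason was not tested.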
